A study of Mus musculus with 6 samples.

Results

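Sox and T-box genes encode transcription factors of separate families. They are described here by the binding of SP8 near them in mouse forelimb ectoderm. The 34 genes, 19 Sox and 15 T-box, were taken by name, among 21523 protein-coding genes placed on the mouse genome. The limb genes Tbx2, Tbx3, Tbx4, Tbx5 and Sox9 formed a subset of 5, set beside the other 29. For each gene, the peaks of 1 SP8 chromatin immunoprecipitation sequencing (ChIP-seq) list were taken whose centre lay inside the gene, or within 10 kb or 100 kb of its start or end.

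The study comprised 6 libraries from E10.5 forelimb ectoderm of strain C57BL6J. There were 2 SP8-FLAG immunoprecipitations and 2 inputs from embryos homozygous for the FLAG-tagged Sp8 knock-in allele (labelled Sp8FL KI), and 1 immunoprecipitation of dimethylated histone H3 lysine 4 with 1 input from wild-type (WT) embryos. Each replicate pooled ectoderm from 50 forelimb buds. All were prepared with 0.25% trypsin for 20 min and 18 PCR cycles. The values below come from the authors' list of 1451 peaks named for SP8 replicate 1. The other libraries, the read depth and any measure of peak strength were not analysed here, and a list of positions gives no level of a marker gene against which to check the tissue label. From pooled ectoderm, strong binding in few cells and weak binding in many cannot be told apart.

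Sox proteins bind DNA through an HMG box, which fits into the minor groove and bends the helix, and they are grouped by letter (SoxB to SoxH) by the likeness of that domain. T-box proteins bind through the domain that gives them their name. In the limb bud, Tbx5 starts the forelimb and Tbx4 acts in the hindlimb, both in mesenchyme, the tissue beneath the ectoderm. Tbx2 and Tbx3 mark the margins of the bud, and Sox9 directs mesenchymal cells to cartilage. SP8 is a zinc-finger factor of the SP and KLF family, needed in the ectoderm for the ridge that drives limb outgrowth. Factors of that family bind GC-rich elements, of which the GC box GGGCGG is the textbook core.

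Of the 34 genes, 5 had a peak centre inside or within 10 kb: Sox4, Sox6, Sox9, Tbx3 and Eomes. That is 14.7%, beside 6.48% of all protein-coding genes (1394 of 21523). Within 100 kb the number was 9, or 26.5%, with Sox13, Sox15, Tbx15 and Tbx21 added, beside 20.1% of all protein-coding genes. The other 25 had none within 100 kb. These shares describe 1 list without a replicate check. No test was made, because genes are not replicates of a measurement.

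The sequences that bear on these genes are promoter windows from RefSeq (GRCm38.p6), each running from 250 bases before a transcription start site to 50 after it. The table held windows for 24 of the 34 genes, among them 3 of the 5 with a peak within 10 kb. Sox9 and Tbx3 were among the 10 it lacked. The windows of Sox4, Sox6 and Eomes are printed in the direction of the gene, to show each gene's own start site nearest to its peak. Capitals mark GGGCGG on either strand, which reads CCGCCC on the other.
Sox4, chr13:28953650-28953949, minus strand: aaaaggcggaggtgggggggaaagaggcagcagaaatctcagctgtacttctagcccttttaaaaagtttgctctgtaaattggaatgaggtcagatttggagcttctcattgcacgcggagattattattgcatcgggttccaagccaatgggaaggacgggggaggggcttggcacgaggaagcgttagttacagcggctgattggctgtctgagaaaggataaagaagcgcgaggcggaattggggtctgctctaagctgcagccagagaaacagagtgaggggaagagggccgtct
Sox6, chr7:116030998-116031297, minus strand: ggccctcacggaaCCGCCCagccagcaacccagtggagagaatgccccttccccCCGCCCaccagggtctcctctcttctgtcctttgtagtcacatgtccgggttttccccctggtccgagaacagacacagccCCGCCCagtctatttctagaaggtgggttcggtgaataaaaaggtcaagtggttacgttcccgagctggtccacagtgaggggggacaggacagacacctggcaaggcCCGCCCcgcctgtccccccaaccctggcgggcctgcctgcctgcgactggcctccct
Eomes, chr9:118477939-118478238, plus strand: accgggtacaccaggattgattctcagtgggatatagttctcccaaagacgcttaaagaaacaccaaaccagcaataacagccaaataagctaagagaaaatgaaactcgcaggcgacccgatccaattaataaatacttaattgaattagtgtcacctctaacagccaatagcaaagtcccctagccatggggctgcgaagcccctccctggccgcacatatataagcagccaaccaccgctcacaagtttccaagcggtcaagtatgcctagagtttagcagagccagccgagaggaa
The Sox6 window held 4 GC boxes and was 63.3% G or C. The Sox4 and Eomes windows held none, with 52% and 47.3% G or C. None of the 3 lay under a peak, so they show the start sites beside the binding and not the bound sequence.

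The windows that a peak near a member did overlap belonged to neighbouring genes. Of the 10 peaks within 100 kb of a member, 2 reached such a window. The peak counted for Sox13 covered the last 106 bases of the window of Etnk2, an ethanolamine kinase gene. A peak counted for Tbx21 covered the last 18 bases of that of Kpnb1, which encodes the nuclear import receptor importin beta. Both windows are printed whole and in the same way, because their covered ends are the only stretches of these peaks for which sequence was at hand. Positions were taken as deposited.
Etnk2, chr1:133363322-133363621, plus strand: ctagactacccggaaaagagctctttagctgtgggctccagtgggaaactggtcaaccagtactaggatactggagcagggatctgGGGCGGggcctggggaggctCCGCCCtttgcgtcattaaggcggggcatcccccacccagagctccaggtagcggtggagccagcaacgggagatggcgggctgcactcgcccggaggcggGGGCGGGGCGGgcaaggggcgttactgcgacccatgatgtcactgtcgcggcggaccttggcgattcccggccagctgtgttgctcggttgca
Kpnb1, chr11:97187843-97188142, minus strand: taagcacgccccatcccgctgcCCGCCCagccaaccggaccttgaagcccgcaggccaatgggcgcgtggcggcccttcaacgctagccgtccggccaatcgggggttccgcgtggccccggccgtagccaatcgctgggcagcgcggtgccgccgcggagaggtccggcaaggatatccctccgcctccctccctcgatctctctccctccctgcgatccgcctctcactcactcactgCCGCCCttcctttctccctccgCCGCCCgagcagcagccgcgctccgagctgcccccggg
The Etnk2 window held 4 GC boxes. Of these, the 2 that share a base in the run GGGCGGGGCGG lay in the covered stretch and the other 2 outside it. The Kpnb1 window held 3, and 0 of them lay in the stretch under the peak. A GC box stood in 438 of the 491 promoter windows overlapped by any peak of the list (89.2%), against 35.7% of all 32851 windows, wherever in the window the box stood. Those 491 windows were also richer in G and C, with a median of 68% against 52.7%, and the part of base composition in the difference was not tested.

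Over the members, none of 32 windows lay under a peak, where 1.49% of all windows did. GC boxes were present in at least 1 window of 15 of the 24 genes with windows, 8 of 13 Sox genes and 7 of 11 T-box genes. The share by gene over all genes is not given here. By window the share was 46.9%, against 35.7% of all windows. Member windows were also richer in G and C, with a median of 58% against 52.7%, and the part of base composition was not tested. The homeodomain core TAATTA was found in windows of 3 T-box genes, Tbr1, Tbx19 and Tbx6, and in none of the 13 Sox genes. That is 9.38% of member windows and 21.4% of T-box windows, against 5.29% of all windows. The Sox core AACAAT was found for Sox6, Tbr1 and Tbx19, in 9.38% of member windows against 10.7% of all windows. The T-box element AGGTGTGA was in no member window and in 1.28% of all windows. All motifs were searched on both strands, and a match is a run of letters, not a shown binding site.

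**Figure D1:**
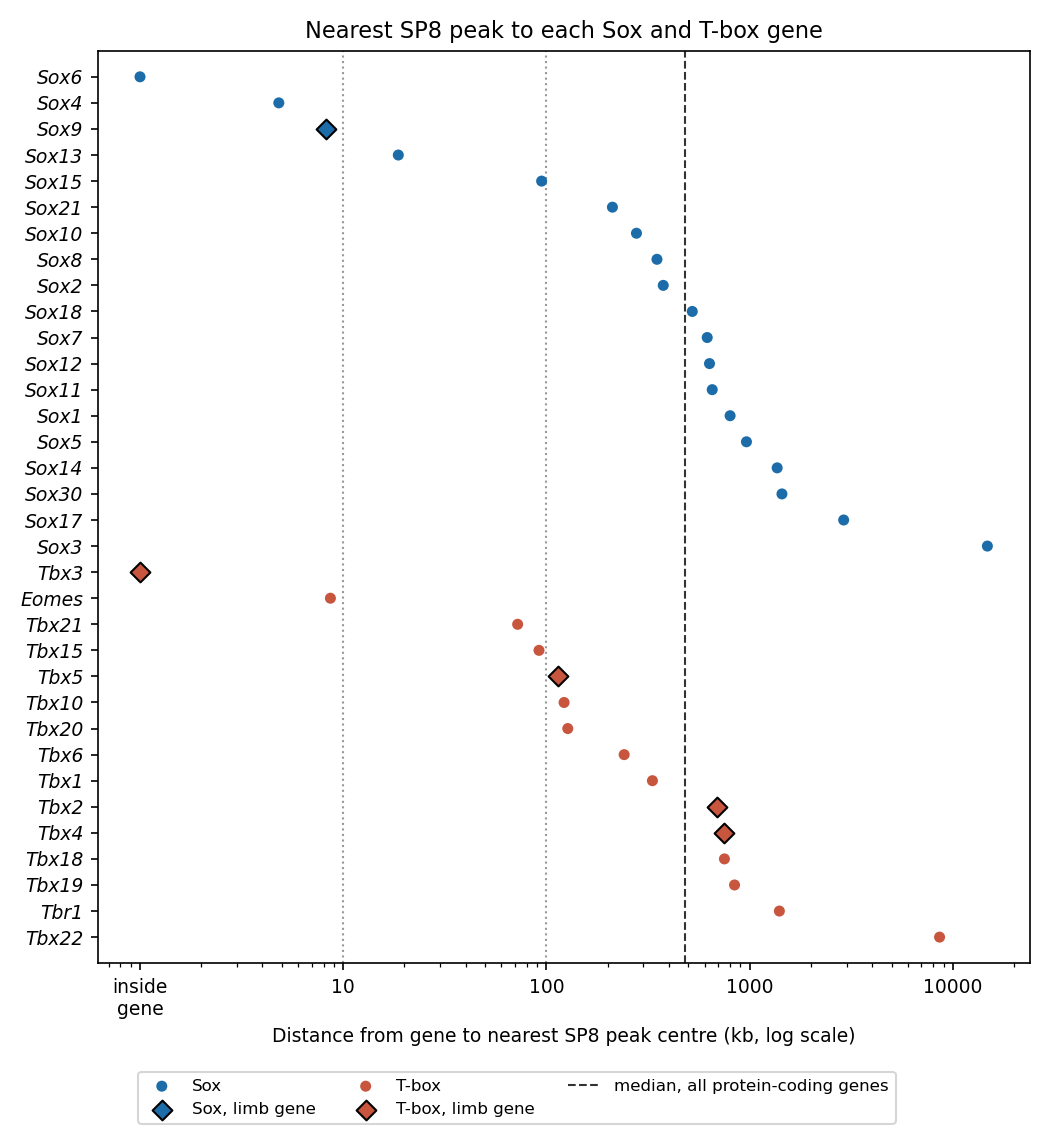
Distance in kb (log axis) from each of the 34 genes to its nearest SP8 peak centre, with genes holding a peak centre drawn at the left edge, limb genes as diamonds, dotted lines at 10 and 100 kb and a dashed line at the median of all protein-coding genes (480.8 kb). Sox6 and Tbx3 hold a peak, and Sox3 and Tbx22 on chromosome X lie farthest from one.

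Among the 5 limb genes, 2 had a peak within 10 kb, Tbx3 and Sox9, and no further limb gene was reached at 100 kb. The other 29 members had 3 (10.3%) and 7 (24.1%), beside 6.48% and 20.1% of all protein-coding genes. The subset is 5 genes, of which Tbx3 and Tbx5, and Tbx2 and Tbx4, are neighbours on a chromosome and share their nearest peaks. A gene more or less moves its share from 40.0% to 60.0% or 20.0%, and no difference between the subset and the other members can be read from it.

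Tbx3 held its peak inside the gene. The peak, chr5:119682592-119683255 in the list's coordinates, was 663 bp wide and carried number 1281 of 1451. Its centre lay 12.4 kb from the lower boundary of the 14.2 kb gene (chr5:119670534-119684724) and 1.80 kb from the higher one. The gene table gives no exons, so the peak is placed in the gene and not in an exon or intron. No further peak lay within 1 Mb of Tbx3.

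Tbx5, on the same chromosome, lay beyond Tbx3 across a gap of 111.8 kb that held 0 peaks. Its nearest peak was the one inside Tbx3, 113.6 kb away, and it was the only peak within 1 Mb of either gene. Tbx5 therefore fell just outside the 100 kb limit, and a window of 200 kb would take it in. The gene just inside that limit was Sox15, at 94.7 kb.

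Tbx2 and Tbx4 stood 44.4 kb apart on chromosome 11 with 0 peaks between them. Their nearest peak was shared, number 287, 359 bp wide and inside Usp32, a ubiquitin protease gene. It lay 692.7 kb from Tbx2 and 746.4 kb from Tbx4. A second peak within 1 Mb of Tbx2, at 962.3 kb, was inside Ggnbp2. The 2 pairs thus differed: the chromosome 5 pair had a peak within it, at Tbx3, and the nearest to the chromosome 11 pair was 692.7 kb away.

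Sox9 was the limb gene with the most peaks around it, with 4 within 1 Mb, where the median over all protein-coding genes was 1. The nearest, chr11:112795721-112796198, was 477 bp wide and carried number 175, the earliest in the list among the 10 peaks near members. Its centre was 8.20 kb beyond the higher boundary of the gene (chr11:112782210-112787757). The others lay at 320.4, 778.0 and 826.7 kb on the same side. The peak at 320.4 kb, number 141, was outside protein-coding genes, 136.7 kb from Slc39a11, a zinc transporter gene, and the last 2 were inside Slc39a11. No peak lay within 1 Mb on the lower-coordinate side. The protein-coding gene next nearest to the first peak was Slc39a11, 448.9 kb away.

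**Figure D2:**
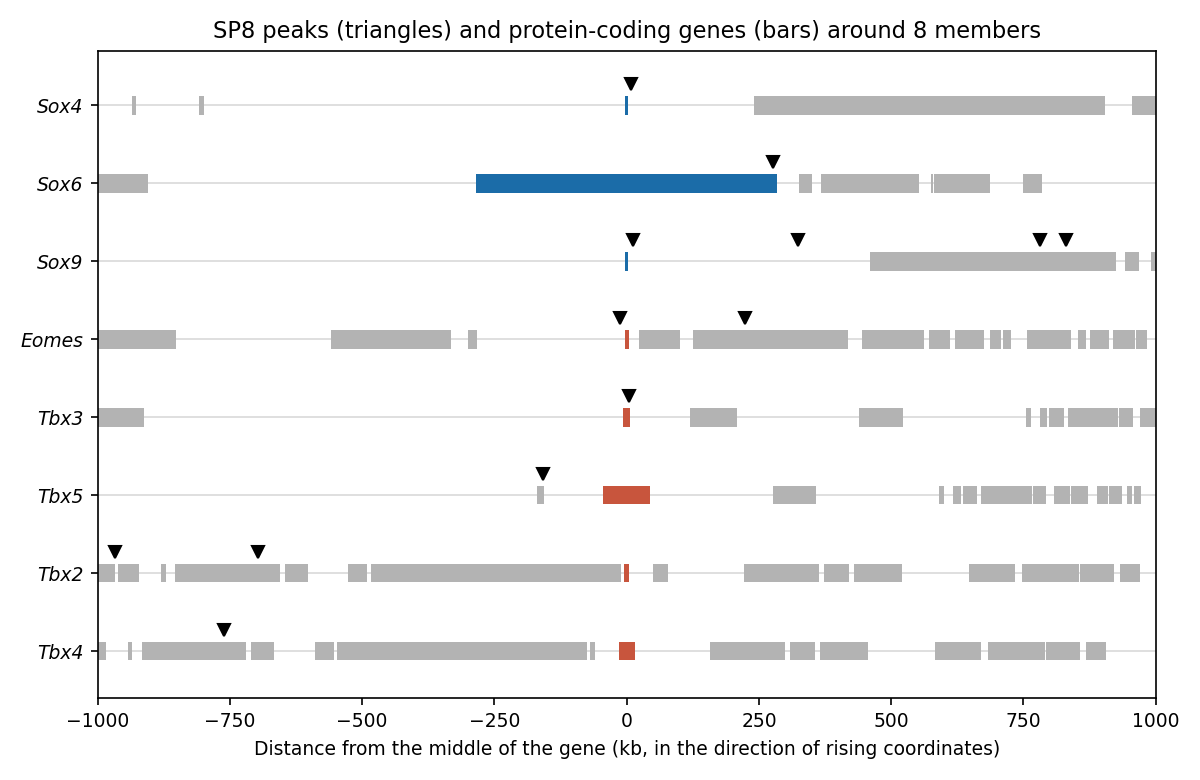
SP8 peak centres (black triangles) and protein-coding genes (grey bars, the named gene in blue for Sox or red for T-box) up to 1000 kb from the middle of 8 members, in the direction of rising coordinates. The 4 Sox9 peaks lie on its higher-coordinate side, the Tbx3 and Tbx5 rows show the same peak, and the Tbx2 and Tbx4 rows have their nearest at -697.3 and -761.3 kb on this axis.

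In the Sox family as a whole, 3 of 19 genes (15.8%) had a peak within 10 kb and 5 (26.3%) within 100 kb. Among all protein-coding genes 6.48% and 20.1% did. The median distance of a Sox gene to its nearest peak was 521.9 kb (95% binomial interval of the median over genes, 94.7 to 964.3), beside 480.8 kb for all protein-coding genes. With the first 725 peaks alone the Sox median was 1365 kb and that of all protein-coding genes 970.1 kb. With peaks of at least 336 bp they were 1716 and 999.8 kb. With the gene start alone, where 13 Sox genes had a start site, the order was reversed, with 378.1 and 508.9 kb.

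SoxC genes act in progenitor cells of nerve and mesenchyme, and of the 3 only Sox4 was near a peak. That peak, chr13:28958214-28958823, was 609 bp wide with number 787. Its centre lay 4.82 kb before the start site of the sequence printed above. Cdkal1, the next protein-coding gene, was 233.2 kb from it. Sox11 and Sox12 had their nearest peaks at 654.2 and 634.4 kb.

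Of the SoxD genes, Sox5 and Sox6 work with Sox9 in cartilage. Within 100 kb, 2 of the 3 SoxD genes, Sox6 and Sox13, had a peak, beside 20.1% of all protein-coding genes. Sox6, a gene of 569.9 kb, held 1 peak near its 5′ end, chr7:116032544-116032813, 269 bp wide with number 1127. The centre was 8.10 kb inside the higher boundary and 1.63 kb before the start site whose window, with its 4 GC boxes, is printed above, 1 of 6 start sites in the table. Sox13 was 18.7 kb from peak 247, chr1:133363516-133363758, which was 242 bp wide, inside Etnk2 and 0.174 kb from a boundary of that gene. Eomes, at 8.65 kb, and Sox13 are the genes just inside and just outside the 10 kb limit. Sox5, although its gene spans 953.9 kb, held no peak, and the nearest was 964.3 kb away.

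SoxE genes act in neural crest and cartilage. Beside Sox9 at 8.20 kb, Sox10, a neural crest gene, and Sox8 had their nearest peaks at 277.3 and 349.8 kb. All 3 had a peak within 500 kb, where 51.0% of all protein-coding genes did.

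The SoxB genes, which include the neural and stem cell factor Sox2, had no peak within 100 kb, where 20.1% of all protein-coding genes had a peak. The distances were 211.2 kb for Sox21, 375.6 kb for Sox2, 801.0 kb for Sox1 and 1365 kb for Sox14. Sox3, on chromosome X, was 14781 kb from a peak, on a chromosome with 13 peaks in all. The SoxF genes, which act in blood and lymph vessels and in endoderm, also had none, with 521.9 kb for Sox18, 618.1 kb for Sox7 and 2901 kb for Sox17. Sox30, a gene of male germ cells, was 1441 kb from a peak. SoxG is Sox15 alone, whose nearest peak (number 1275, 199 bp wide) lay 94.7 kb away inside Efnb3, an ephrin ligand gene.

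Of the T-box genes, 2 of 15 (13.3%) had a peak within 10 kb and 4 (26.7%) within 100 kb. Among all protein-coding genes 6.48% and 20.1% did, and the families had nearly the same share at 100 kb. The median distance of a T-box gene was 241.2 kb (interval 91.9 to 751.2). The interval covers the choice of genes only and takes the genes as independent. The T-box genes are not all so, since Tbx3 and Tbx5, and Tbx2 and Tbx4, share their nearest peaks. The families were not tested against each other. The T-box median lay below the 480.8 kb of all protein-coding genes, but with the first 725 peaks alone it was 1141 kb, above their 970.1 kb. In the remaining settings the T-box median stayed below theirs. From the peak edge it was 240.7 kb beside 480.6 kb, and with peaks of at least 336 bp 746.4 kb beside 999.8 kb. With the gene start alone, for 11 T-box genes, it was 340.1 kb beside 508.9 kb. Within 500 kb there were 9 T-box genes (60.0%) and 9 Sox genes (47.4%), beside 51.0% of all protein-coding genes. The order of the families changed with the window: the Sox share was the higher one at 10, 20 and 50 kb, and the T-box share at 200, 500 and 1000 kb.

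**Figure D3:**
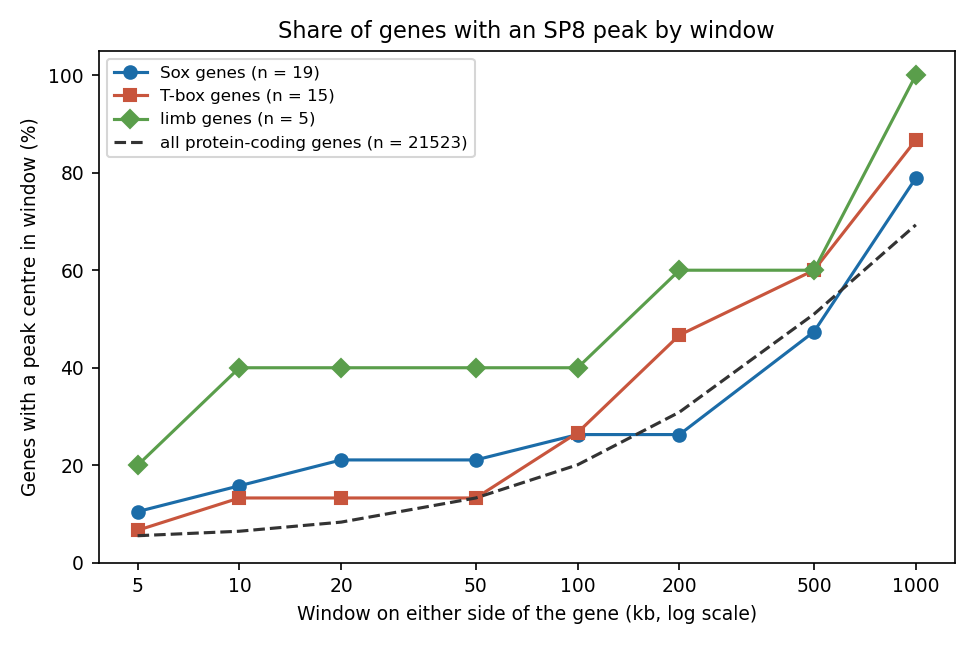
Percentage of genes with an SP8 peak centre inside or within the window on the x axis (kb, log scale), for 19 Sox genes, 15 T-box genes, the 5 limb genes (also counted in their families) and all protein-coding genes (dashed). At 100 kb the Sox and T-box points stand at 26.3% and 26.7%, over a background of 20.1%, and the limb points move in steps of 1 gene in 5.

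Eomes and Tbx21 belong to the Tbr1 subfamily with Tbr1. Eomes, which acts in trophoblast, early mesendoderm and lymphocytes, had a peak 8.65 kb before its start site, chr9:118469439-118469638, with number 967. This peak had the smallest width in the list, 199 bp, shared by 63 of 1451 peaks. Golga4 was the next coding gene, 36.7 kb from it. Tbx21, the T-bet factor of T helper cells, was the only member with 2 peaks within 100 kb. One, number 1190 and 755 bp wide, was 72.2 kb away inside Kpnb1, and the other, number 642 and 1824 bp wide, was 75.9 kb away inside Sp6, an SP gene expressed in limb ectoderm. Tbr1, a factor of cortical neurons, was 1400 kb from a peak.

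Beside 20.1% of all protein-coding genes, the Tbx1 subfamily had 1 of 6 genes with a peak within 100 kb. That was Tbx15, a gene of skeleton and skin patterning, 91.9 kb from peak 1109 (231 bp wide), which lay inside Wars2, a mitochondrial tRNA synthetase gene. Tbx10 and Tbx20 were at 122.1 and 127.3 kb, Tbx1, a gene of the pharynx and heart, at 332.2 kb, and Tbx18 at 751.2 kb. Tbx22, the palate gene on chromosome X, was at 8598 kb. Tbx6, a gene of the presomitic mesoderm, was 241.2 kb from a peak, and Tbx19, a pituitary factor, 842.5 kb.

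The peaks near members were also sorted by their nearest protein-coding gene. All 5 peaks within 10 kb had a member as their nearest protein-coding gene. All 5 peaks between 10 and 100 kb lay inside another protein-coding gene, namely Etnk2, Efnb3, Wars2, Kpnb1 and Sp6. Counting each peak for its nearest coding gene alone therefore left the members within 100 kb at 3 Sox and 2 T-box genes. Over the list, 680 of 1451 peaks lay outside protein-coding genes. A peak close to a member is the more likely to have it as nearest gene, so this split is not read as a result. Members differed in how crowded their surroundings were: 15 coding genes lay within 100 kb of Sox15 and 8 within 100 kb of Tbx21, while Sox4, Sox9, Tbx3 and Tbx5 had 0. Members without a peak within 100 kb also ranged from 0, as for Sox1, Sox2, Sox11 and Tbx18, to 16 for Tbx10. The median was 2 for Sox and for T-box genes and 4 over all protein-coding genes. The median gene length was 4.79 kb for Sox genes, 17.3 kb for T-box genes and 17.4 kb over all protein-coding genes. A peak inside a gene counts for it, and the part of gene density and gene length in these counts was not tested.

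The 10 peaks near members had a median width of 373 bp, against 336 bp over the list, and ranged from 199 to 1824 bp. Their median number in the list was 1038, against 726, with 3 of 10 among the first 725 peaks. These 3 were the peaks at Sox9, at Etnk2 near Sox13, and at Sp6 near Tbx21. The meaning of the number is not given in the sources used here, so it places a peak in the file and is not read as strength.

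**Figure D4:**
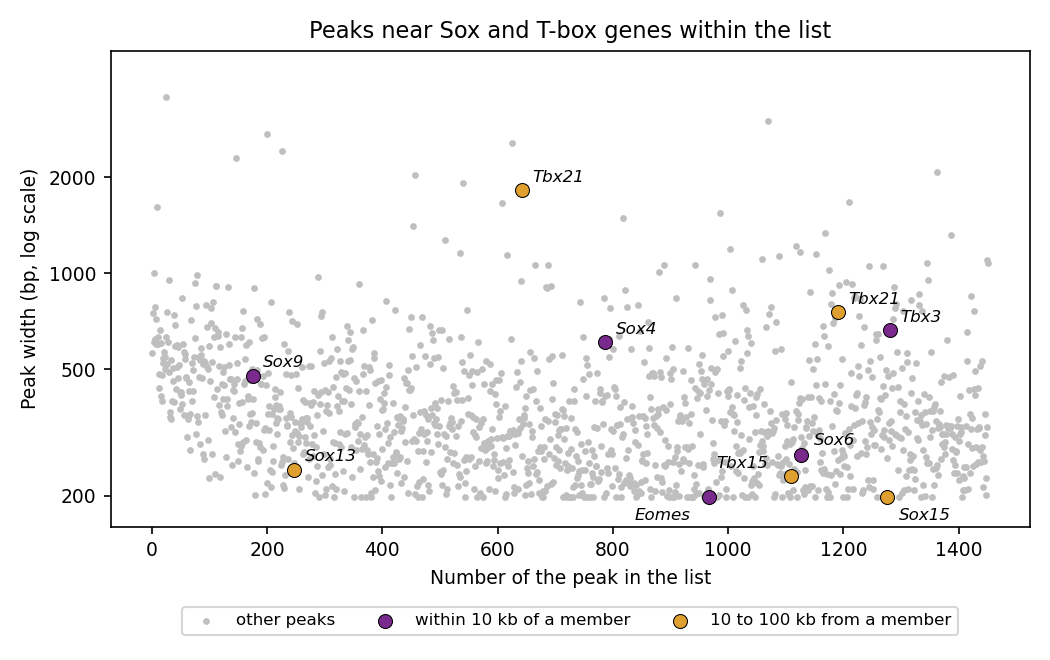
Width in bp (log axis) of each of the 1451 peaks against its number in the list, with the 5 peaks within 10 kb of a member in purple, the 5 others within 100 kb in orange, and the member's name beside each. The Sox9 peak stands at number 175, and the widest of the 10, at 1824 bp, is the one inside Sp6 counted for Tbx21.

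Genes related to the members were counted from a list of 18. Of 7 further genes with a sequence-specific HMG box, 3 held a peak and 4 had none within 100 kb, where 6.48% of all protein-coding genes had a peak inside or within 10 kb and 20.1% within 100 kb. Tcf7l1 and Tcf7l2 encode TCF factors, the nuclear partners of beta-catenin in Wnt signalling. Tcf7l1 held 2 peaks, 25.2 and 33.7 kb after its start site, and Tcf7l2 held 1, centred 1.40 kb after its start site. Their relatives Lef1 and Tcf7 were 1405 and 245.9 kb from a peak. Cic, the capicua repressor, held a peak of 646 bp (number 984) centred 0.261 kb after a start site. Its promoter window is shown because it was the only window in the table of a member or listed relative that lay under a peak, over its last 112 bases.
Cic, chr7:25281929-25282228, plus strand: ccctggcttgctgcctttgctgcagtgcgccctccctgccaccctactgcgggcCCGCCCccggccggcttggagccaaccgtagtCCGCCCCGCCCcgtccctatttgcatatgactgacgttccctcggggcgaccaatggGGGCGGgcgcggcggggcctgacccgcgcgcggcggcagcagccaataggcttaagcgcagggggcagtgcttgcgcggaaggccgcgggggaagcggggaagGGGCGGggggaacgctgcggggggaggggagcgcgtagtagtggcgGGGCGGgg
It was 74.3% G or C and held 6 GC boxes, of which 2 lay in the stretch under the peak and 4, with the adjoining pair, outside it. Of the remaining HMG-box genes, Hbp1 was 1826 kb and Bbx 5627 kb from a peak.

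The T-box genes T and Mga, which were not among the 34, had their nearest peaks at 414.2 and 27.8 kb, the latter inside Mapkbp1. Sry, on chromosome Y, was not placed. Of 8 limb partners and targets of Sox and T-box factors, 1 had a peak within 100 kb, beside 20.1% of all protein-coding genes. The gene with a peak was the cartilage collagen gene Col11a2, 54.9 kb from a peak inside Brd2 and H2-DMa, which overlap there. Fgf10, the target of Tbx5 that starts the limb's signalling loop, was 616.8 kb from a peak, the cartilage collagen gene Col2a1 605.1 kb, and Pitx1, the hindlimb factor upstream of Tbx4, 724.6 kb. Gdf5, Acan, Hand2 and Sall4 were at 467.2, 911.6, 989.1 and 1245 kb. The median of the 8 was 670.7 kb, beside 480.8 kb for all protein-coding genes, and the difference was not tested. A gene without a peak cannot be told apart from a gene bound below the calling threshold.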

How the data were processed

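The deposited list of the authors holds, for each SP8 peak, a chromosome, a start, an end and a running number, with no score, fold or p-value. Per the submitters' processing notes, TopHat2, SAMtools, deepTools, MACS2 and FastQC were used with builds GRCm38 and mm10. Their roles, the control and any pooling are not given in the sources used here, nor is whether starts count from 0 or 1. The thresholds in the list's name could not be checked.

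Genes came from the RefSeq table of GRCm38.p6. Of its 49997 genes, 783 were left out (chromosome Y, mitochondrial, unplaced, or starting below 3 Mb), and 21523 of the rest are protein-coding. Of 1451 peaks, 1447 were placed and 4 on contigs were not. Distance ran from the peak centre to the nearer gene boundary, and was 0 inside the gene. Start sites and strand came from 32851 RefSeq promoter windows. Python 3.11.15, pandas 2.3.3, numpy 2.4.6 and scipy 1.17.1 were used, and the distance code was tested on simulated data. The depth is unknown, no tests were made, and the intervals of medians cover the choice of genes only.

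The members and gene lists were chosen with earlier results of these data known. All members are named, peak by peak where a centre lay within 100 kb. Alternatives were the peak edge, the first 725 peaks, peaks of at least 336 bp, the gene start alone, other windows, and each peak counted for its nearest coding gene alone.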

Additional observations from a re-analysis of the deposited data

How the results depend on the processing

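Of 62 alternative values for 10 results, 36 stayed within 1.5 times the main count or within the interval of the median. Measuring from the peak edge moved none. With the first 725 peaks, which has fewer peaks by construction, the Sox count was 1 at 10 kb and 2 at 100 kb, the T-box count 0 and 1, the limb count 1 and 1, and that of the other members 0 and 2, beside 3.23% and 10.7% of all protein-coding genes. The medians were then 1365 kb for Sox and 1141 kb for T-box genes, both above the 970.1 kb of all protein-coding genes. With peaks of at least 336 bp, again fewer by construction, the T-box count was 1 at 10 kb and 2 at 100 kb, the Sox count 2 at 100 kb with a median of 1716 kb, and the other members 1 and 2, where all protein-coding genes had 3.49%, 11.4% and a median of 999.8 kb. With the gene start alone, where 11 T-box genes had a start site, their counts were 1 and 2, beside 4.36% and 17.9% of all protein-coding genes. The genes that dropped out, Tbx3 and Tbx15, had no start site given and so were not measured. This setting was not given for the limb genes, since only Tbx4 had a start site. Counting each peak for its nearest coding gene gave 3 Sox, 2 T-box and 3 other members at 100 kb. In the window of 5 kb there were 1 T-box and 1 limb gene (Tbx3, background 5.56%), in that of 50 kb 2 T-box genes and 4 other members (13.3%), and in that of 200 kb 7 T-box genes (30.9%). No paired analysis was possible because only the list of SP8 replicate 1 was used, which also leaves no replicate to drop in turn. The unknown depth limits what can be said of genes without a peak, and with 5 to 29 genes a group, 1 peak moves a count.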

Other observations

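The values in this part were looked for after the peaks had been seen. The 3 peaks within 10 kb of a member but outside it, those of Sox4, Sox9 and Eomes, each had their centre inside a long noncoding RNA gene of the table. Over the list, 127 of the 680 peaks outside protein-coding genes (18.7%) lay inside a long noncoding RNA gene. Those 680 lay at any distance from a coding gene, so the share is not one for peaks within 10 kb of a gene. The noncoding genes were Gm46405 at Sox4 (15.5 kb long, spanning Sox4), Gm11681 at Sox9 (6.28 kb long, with its nearer end 4.97 kb from Sox9) and Gm33408 at Eomes (31.5 kb long, overlapping the start of Eomes). All 3 are on the minus strand. The peak centres were 1.52, 3.05 and 9.11 kb from the start sites of Gm46405, Gm11681 and Gm33408, so none of the 3 peaks was centred on such a start. With 3 genes and 1 list, these are values and not a comparison.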
